A study of Danio rerio with 12 samples.

Results

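Cytosolic ribosomal protein genes were followed in the adult zebrafish brain, as 72 of the 32674 genes in the deposited tables. They were chosen by symbol: rpl or rps followed by a digit, or rplp0 to rplp2, with the S6 kinases left out. All 72 had a scaled count (fragments per gene divided by a size factor for each library) of at least 10 in at least 6 of 11 libraries, as did 16364 genes in all. By symbol, 38 belonged to the large subunit, 31 to the small subunit and 3 to the stalk of the large subunit. The symbols also brought in rps19bp1, a binding partner of Rps19, and rpl7l1, a ribosome assembly factor in human cells, as well as rps27a, which encodes a ribosomal protein fused to ubiquitin. A table of reference names gave a ribosomal protein identity to RPL29, which carries a clone name in the files and so fell outside the rule.

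The ribosome is built from a small subunit, which reads the mRNA, and a large subunit, which joins amino acids into protein. Each is made of ribosomal RNA and a single copy of most of its proteins, and the stalk proteins, which recruit elongation factors, are an exception with several copies. Ribosomal protein mRNAs are among the most abundant in most cells, share a pyrimidine tract at their start, and are translated together under the control of mTOR.

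RNA was sequenced from brains of adult F3 fish of the EK strain in both lineages. The MeHg lineage descended from eggs kept for 24 h in 0.03 µM methylmercury in ethanol vehicle, and the control lineage from eggs kept in vehicle alone (0 µM). Only those founding eggs met methylmercury, and F2 and F3 fish of both lineages were raised without it. The labels list 6 biological replicates of each lineage, and whether brains were pooled and how many founders a lineage had is not stated there. All 6 MeHg libraries (replicates 1, 2, 4, 5, 7 and 8) and 5 control libraries (replicates 2, 4, 5, 6 and 8) were analysed. Sex and age were not in the labels used here.

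Some libraries stood apart before any comparison was made. Neuron markers, 16 genes, summed to 37744 to 49742 scaled counts in MeHg libraries and 34818 to 47547 in control libraries. Epidermis markers (12 of 28 tested) summed to 31920 and 59847 in MeHg replicates 4 and 5 and to 76083 in control replicate 4, and to at most 7587 in the other 8 libraries. Skeletal muscle markers (20 of 33 tested) summed to 38429 in MeHg replicate 4, 8268 in MeHg replicate 5 and 4730 in control replicate 5, and to at most 1948 elsewhere. None of the 12 tested epidermis markers was at 0 in any library, while the muscle markers pvalb1, pvalb2, pvalb3 and atp2a1l were at 0 in at least 1. The keratin krt5 had 33.5 to 22787 scaled counts in MeHg libraries and 104 to 21013 in control libraries. The sum of microglia and leukocyte markers was highest in MeHg replicate 4, at 12201, and in control replicates 4 and 5, at 19685 and 11195. In control replicate 4 the lipoprotein gene apoeb alone gave 14915 of that sum, and the median deviation of the 14 markers on the log2 scale was 0.87 in MeHg replicate 4, against 0.27 and 0.47 in control replicates 4 and 5. Implied depth was 3248609 to 7503938 fragments in MeHg libraries and 2062491 to 6100925 in control libraries. Every one of the libraries named here as standing apart remained in the comparison unless stated.

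Ribosomal protein mRNA formed a large and narrow class. The 72 genes held 1.95% to 4.29% of all scaled counts in MeHg libraries and 2.49% to 4.76% in control libraries. Because these mRNAs are short, their share per length was larger, at 5.69% to 10.9% of all FPKM (fragments per kilobase of gene, scaled for depth) in MeHg libraries and 5.58% to 11.5% in control libraries. The median member had a mean level of 776 FPKM over the 11 libraries, against 9.17 FPKM for the median tested gene.

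Levels per length fell into a dense band with a short tail. There were 67 members with a mean level over 300 FPKM, and these spanned 379 to 1535 FPKM, a range of 4.05-fold. At its top stood rpl31 (1535 FPKM) and rpl35 (1345 FPKM), both near the exit of the peptide tunnel, the stalk base gene rplp0 (1481 FPKM), and rps2 (1411 FPKM) and rps14 (1207 FPKM) of the small subunit. These 5 genes were among the 10 highest members in each of the 11 libraries. The remaining 5 members had 158 FPKM or less, among them rpl22l1, rpl7l1, a second row under the symbol rpl37 (called the weak rpl37 row here), and rps19bp1 at 18.7 FPKM. In this tail, rps19bp1 and rpl7l1 are named for a partner and a relative of ribosomal proteins, and rpl22l1 and the weak rpl37 row each have a stronger counterpart of like name.

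**Figure D1:**
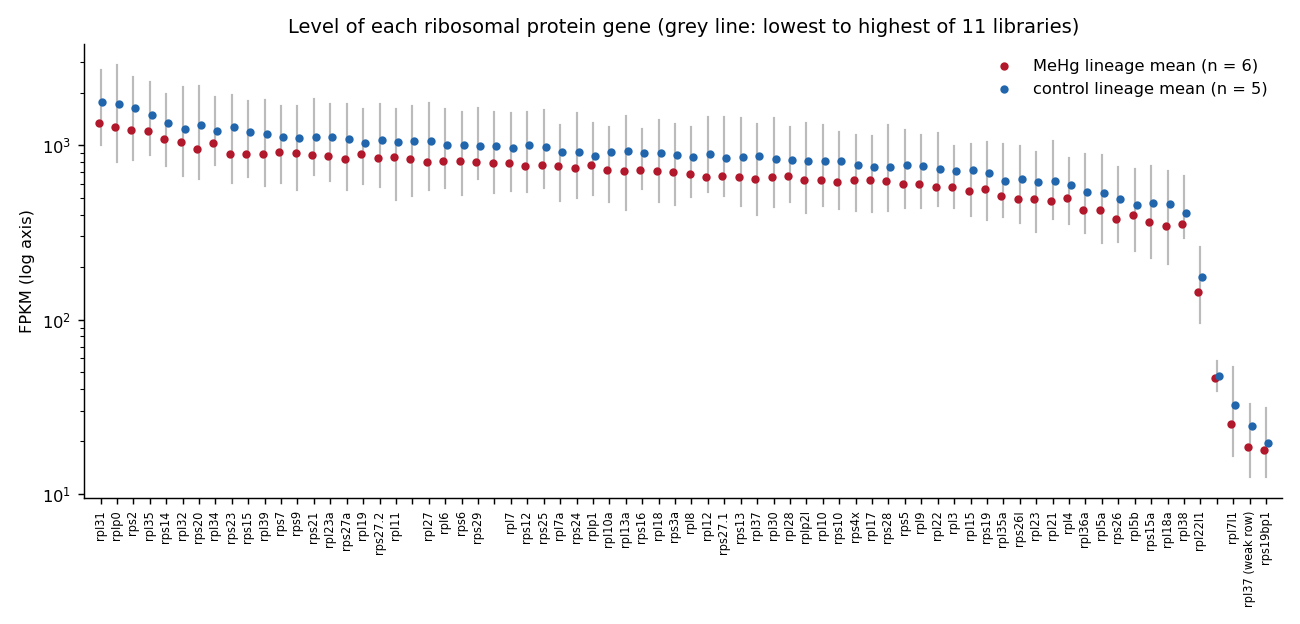
Mean level in FPKM (log axis) of each of the 72 ribosomal protein genes in the MeHg lineage (red, n = 6) and the control lineage (blue, n = 5), ordered from highest to lowest, with grey lines from the lowest to the highest of the 11 libraries. From rpl31 (1535 FPKM) to rpl38 (379 FPKM) the levels form a shallow slope, after which 5 genes drop to 158 FPKM or less.

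The members moved from library to library almost as a block. When each gene was centred on its own mean log2(scaled count + 1) over the 11 libraries, the mean of the members in a library carried 87.9% of their total variance. The same quantity over all tested genes was 1.42%. Scaling by library keeps the centre of all tested genes nearly fixed, with library medians of -0.08 to 0.07. The 1.42% is thus largely set by the scaling and is no benchmark for a gene set. The library medians had an SD of 0.41 on the log2 scale, while members within a library spread around their median with a typical SD of 0.13. The typical member had an SD of 0.41 over libraries, and 0.10 once the library median of the block was subtracted.

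The lowest library was MeHg replicate 8, with a block median of -0.65 on the log2 scale, and the highest was control replicate 5, at 0.88. Both replicate 4 libraries were raised, at 0.39 in the MeHg lineage and 0.38 in the control lineage. The other 4 MeHg libraries lay between -0.23 and -0.05 and the other 3 control libraries between -0.25 and -0.06, ranges that overlapped. MeHg replicate 8 was the lowest library for 68 members, a rank it held for 7.55% of all tested genes. Control replicate 5 was the highest for 71 members, a rank it held for 25.1% of tested genes.

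**Figure D2:**
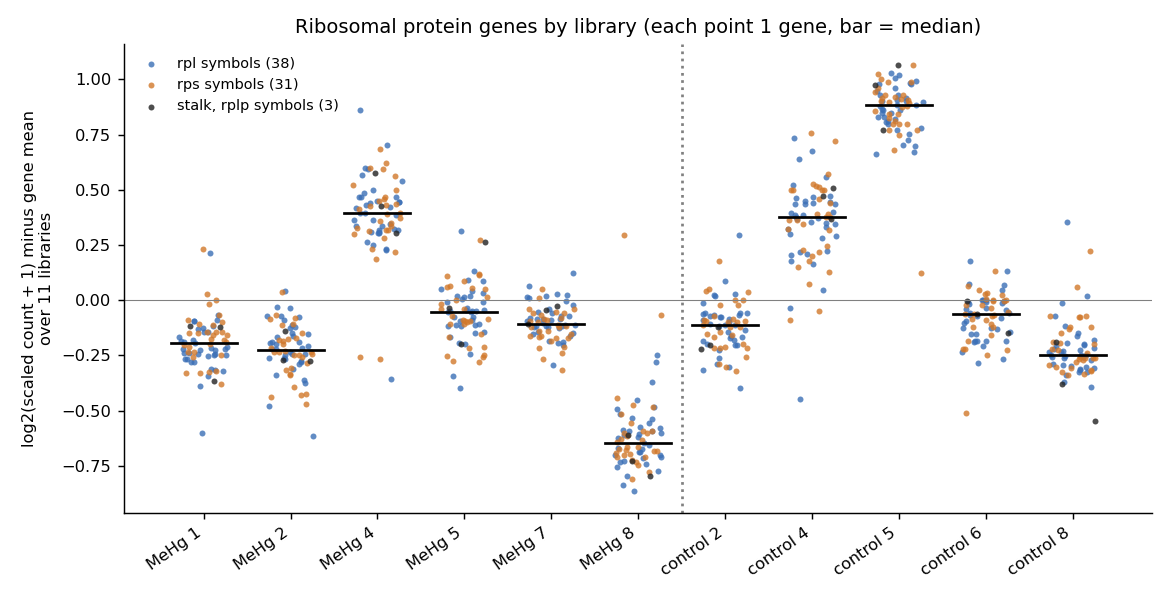
Each point is 1 of the 72 genes in 1 library, as log2(scaled count + 1) minus that gene's mean over the 11 libraries. Black bars are library medians, with MeHg libraries left of the dotted line and control libraries right of it. All 3 classes move together, with medians from -0.65 in MeHg replicate 8 to 0.88 in control replicate 5.

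Large subunit, small subunit and stalk genes kept in step in the libraries that stood apart. In MeHg replicate 8 their medians were -0.62, -0.66 and -0.73, in that order, and in control replicate 5 they were 0.87, 0.89 and 0.98. The members that followed the block most tightly were rpl23a and rpl9 of the large subunit, whose SD relative to the block was 0.04 and 0.05. Least tight among the 67 abundant members was rpl11, which in mammals binds Mdm2 when ribosome assembly fails, with a relative SD of 0.24. The 5 members of the low tail had relative SDs of 0.26 to 0.48.

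The question asked here of these genes was whether their level in F3 brain differed between lineages, and no member passed the test. In limma over all 16364 tested genes, 44 genes (0.269%) passed an adjusted p of 0.05, and 0 of the 72 members did, in either direction. At an unadjusted p under 0.05, 0 members were lower, against 3.3% of tested genes, and 0 were higher. Under voom with sample weights, 0 members passed as well, against 0.489% of tested genes. The members' adjusted p lay between 0.770 and 0.955.

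The estimates nonetheless shared a sign. All 72 log2 fold changes were negative, against 45.7% of tested genes, with a median of -0.30 and a range of -0.48 to -0.05, where SEs were 0.12 to 0.30. Medians were -0.29 for the large subunit, -0.31 for the small subunit and -0.31 for the stalk, against 0.03 for all tested genes. Because the members moved together in each library, these 72 signs are not independent observations. No member separated the lineages: the libraries overlapped for all 72, while 1.37% of tested genes did not overlap. In whole-brain RNA, fewer cells of a type and less of this RNA per cell cannot be told apart.

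The size of the shift rested on the libraries at the ends. Without control replicate 5, 67 members were negative, against 51.7% of tested genes, the median was -0.13 and adjusted p lay between 0.639 and 0.995, and 72 genes (0.44%) passed over all, 0 of them members. Without MeHg replicate 8 the median was -0.20, all 72 members were negative, against 45.4% of tested genes, and 40 genes (0.244%) passed over all, 0 of them members. Without both libraries, an omission chosen after their values were seen, 46 members were negative, against 52.1% of tested genes, the median was -0.03, and 59 genes (0.361%) passed over all, 0 of them members. Control replicate 5 also had 11.7% of its scaled counts on mitochondrially encoded genes, a share that control replicate 8 reached as well, at 11.7%, with a block median of -0.25. Red blood cell markers (4 of 7 tested) summed to 465 to 1404 scaled counts in MeHg libraries and 322 to 2832 in control libraries, with the highest sum in control replicate 5. Radial glia and astroglia markers (6 tested) had their lowest median deviation on the log2 scale in MeHg replicate 8, at -0.46. Their highest was in control replicate 5, at 0.61. In MeHg and control replicate 4, where the block was raised, it was -0.26 and -0.29. The part of these RNAs in the shift was not tested.

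**Figure D3:**
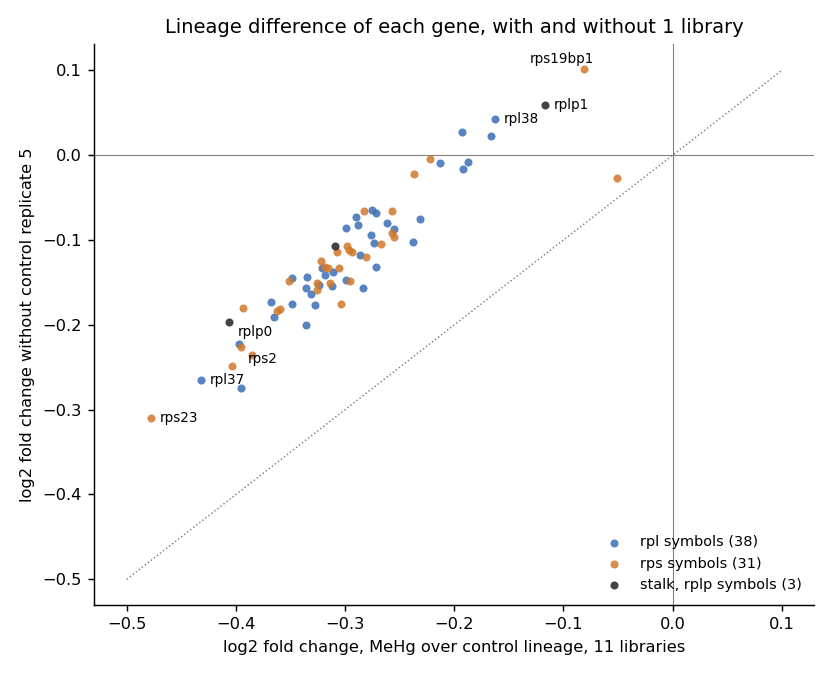
Log2 fold change of each of the 72 genes, MeHg over control lineage, in all 11 libraries (horizontal axis) and without control replicate 5 (vertical axis), with the dotted line where both are equal. All points lie left of 0 on the horizontal axis, and 5 lie above 0 on the vertical axis, where the median is -0.13 in place of -0.30.

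Small subunit genes included the member nearest to the threshold. For rps23, a protein of the decoding centre, MeHg libraries held 1162, 1675 and 2436 scaled counts (lowest, median and highest), against 1922, 2904, 3720, 1810 and 1854 in control replicates 2, 4, 5, 6 and 8. MeHg replicate 4, at 2436, lay above 3 of the 5 control libraries, so the lineages overlapped. Its log2 fold change was -0.48 ± 0.22 (SE; unadjusted p = 0.0527, adjusted p = 0.770 by limma), and -0.31 ± 0.19 without control replicate 5.

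A like pattern held for rps15, which sits close to the decoding site, with 1222, 1607 and 2379 scaled counts in MeHg libraries (lowest, median and highest), against 1856, 2363, 3336, 1900 and 1709 in the control libraries in the same order. Its log2 fold change was -0.40 ± 0.20 (SE; adjusted p = 0.792 by limma). For rps10, on the head of the subunit, it was -0.39 ± 0.20 (SE; adjusted p = 0.810 by limma).

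Abundant small subunit genes showed the replicate 4 libraries most clearly. For rps2, near the mRNA entry, MeHg libraries held 3397, 4596 and 8770 scaled counts (lowest, median and highest), against 4693, 9013, 10125, 4797 and 4980 in control replicates 2, 4, 5, 6 and 8. The 8770 of MeHg replicate 4 stood with the 9013 and 10125 of control replicates 4 and 5, and every other library of either lineage was at 5064 or less. Its log2 fold change was -0.40 ± 0.27 (SE; adjusted p = 0.857 by limma). For rps6, whose protein is phosphorylated by the S6 kinases downstream of mTOR, MeHg libraries held 1972, 2820 and 4815 scaled counts and control libraries 3052, 4279, 5902, 3181 and 2688, with a log2 fold change of -0.31 ± 0.24 (SE; adjusted p = 0.883 by limma).

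Among large subunit genes, the most negative estimate was that of rpl37. MeHg libraries held 771, 1206 and 1722 scaled counts (lowest, median and highest), against 1399, 1784, 2577, 1512 and 1160 in control replicates 2, 4, 5, 6 and 8. Control replicate 8 lay below the MeHg median, and the log2 fold change was -0.43 ± 0.22 (SE; adjusted p = 0.810 by limma; -0.27 without control replicate 5). The most abundant large subunit gene per length, rpl31, averaged 1343 ± 277 FPKM in the MeHg lineage (SD, n = 6) and 1765 ± 607 FPKM in the control lineage (SD, n = 5), with a log2 fold change in scaled counts of -0.37 ± 0.21 (SE; adjusted p = 0.831 by limma).

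Other large subunit genes were closer to 0. For rpl38, needed in mouse embryos for translation of some Hox mRNAs, MeHg libraries held 777, 926 and 1180 scaled counts (lowest, median and highest), against 885, 1159, 1887, 881 and 817 in control replicates 2, 4, 5, 6 and 8. Only control replicate 5 lay above all MeHg libraries. The log2 fold change was -0.16 ± 0.21 (SE; adjusted p = 0.924 by limma), and 0.04 without that library. Likewise rpl32 had -0.19 ± 0.24 (SE; adjusted p = 0.923 by limma), and 0.03 without it, and rpl34 had -0.19 ± 0.20 (SE; adjusted p = 0.909 by limma), and -0.0082 without it.

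The 3 stalk genes differed in level and in how closely they followed the block. For rplp0, the base of the stalk, MeHg libraries held 4211, 6207 and 10902 scaled counts (lowest, median and highest), against 6718, 10411, 15298, 6589 and 6411 in control replicates 2, 4, 5, 6 and 8. MeHg replicate 4 exceeded 4 of the 5 control libraries. Its log2 fold change was -0.41 ± 0.27 (SE; adjusted p = 0.848 by limma), and -0.20 without control replicate 5.

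The stalk arms are formed by P1 and P2 proteins. For rplp1, MeHg libraries held 1570, 2283 and 2958 scaled counts, against 2078, 3092, 4082, 2293 and 1636 in the control libraries, so that MeHg replicate 8 and control replicate 8 were nearly level at the bottom. Its log2 fold change was -0.12 ± 0.23 (SE; adjusted p = 0.946 by limma), and 0.06 without control replicate 5. For rplp2l, averages were 631 ± 159 FPKM in the MeHg lineage (SD, n = 6) and 811 ± 339 FPKM in the control lineage (SD, n = 5), and the log2 fold change in scaled counts was -0.31 ± 0.25 (SE; adjusted p = 0.885 by limma).

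Zebrafish keep some ribosomal protein genes as duplicates, and reads shared between copies could have been split by the authors' counting in a way the labels do not give. The copies rpl5a and rpl5b, whose protein joins Rpl11 and 5S RNA, were at near-equal levels, with an a-to-b ratio of FPKM of 1.06 ± 0.12 in MeHg libraries (SD, n = 6) and 1.15 ± 0.17 in control libraries (SD, n = 5). For rps26 over rps26l the ratio was 0.77 ± 0.09 in the MeHg lineage and 0.78 ± 0.06 in the control lineage, and for rps27.1 over rps27.2 it was 0.79 ± 0.10 and 0.78 ± 0.13 in the same order. The lineage means of these ratios differed by less than 1 SD of either lineage.

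Other pairs were unequal. In mouse, Rpl22 protein represses the mRNA of its paralog Rpl22l1. The ratio of rpl22 to rpl22l1 was 4.21 ± 0.92 in MeHg libraries and 4.20 ± 0.44 in control libraries (SD). The ratio of rpl7 to rpl7l1 was 32.6 ± 10.4 in MeHg libraries and 30.1 ± 5.6 in control libraries (SD). For rpl7l1, MeHg libraries held 81.2, 126 and 156 scaled counts (lowest, median and highest), against 126, 131, 259, 141 and 136 in the control libraries. Control replicate 5 alone was high, and neither replicate 4 library was raised, unlike the block. For rps19bp1 the log2 fold change was -0.08 ± 0.22 (SE; adjusted p = 0.955 by limma), and 0.10 without control replicate 5.

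The weak rpl37 row behaved unlike its namesake in control replicate 4, where it had 41.9 scaled counts, its lowest control value, while rpl37 had 1784. In MeHg replicate 4 the weak row had 75.9 scaled counts, its highest MeHg value. It rested on 27 to 85 implied fragments per library.

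Both replicate 4 libraries raised the block, and partly by the same members. Against the mean of the other libraries of its own lineage, MeHg replicate 4 was higher for 69 of 72 members, with a median of 1.57-fold, and control replicate 4 for 64 of 72, with a median of 1.21-fold (that mean includes control replicate 5). After the block median was subtracted, the 15 members with the largest excess in each library shared 10, among them rpl5a, rpl10a, rpl11, rpl15, rpl22l1, rps2, rps3a, rps20 and rps24. Of the 15 with the smallest excess, 8 were shared, among them rpl7l1, rpl17, rpl21, rps19bp1, rps26, rps27.2 and rps29. Across the 72 members, Pearson's r between these 2 relative profiles was 0.62, where genes are not independent replicates and no p is given. By the same measures, control replicate 4 shared 5 of its 15 highest members with MeHg replicate 5 and 3 with MeHg replicate 8. With MeHg replicate 8, r was -0.38.

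The largest excess in MeHg replicate 4 was that of rpl11, at 1.21 on the log2 scale, against 0.44 in control replicate 4. For rpl5a, whose protein binds Rpl11 and which had the largest excess in control replicate 4, these values were 0.99 and 0.73, and for rps20 they were 0.96 and 0.68. These are single libraries, with no replicate check. MeHg replicate 5 had high epidermis markers too (59847 scaled counts), and its block median was -0.05, its r with the profile of control replicate 4 being 0.18. Muscle markers were high in MeHg replicate 4 (38429 scaled counts) and not in control replicate 4 (1948). The part of these markers in the replicate 4 pattern was not tested. Without the 4 libraries in which epidermis or muscle markers were high (MeHg replicates 4 and 5, control replicates 4 and 5), 0 members passed, against 0.312% of tested genes. In these 7 libraries 67 members were negative, against 53.8% of tested genes, and the median log2 fold change was -0.16 in members and -0.03 in all tested genes.

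**Figure D4:**
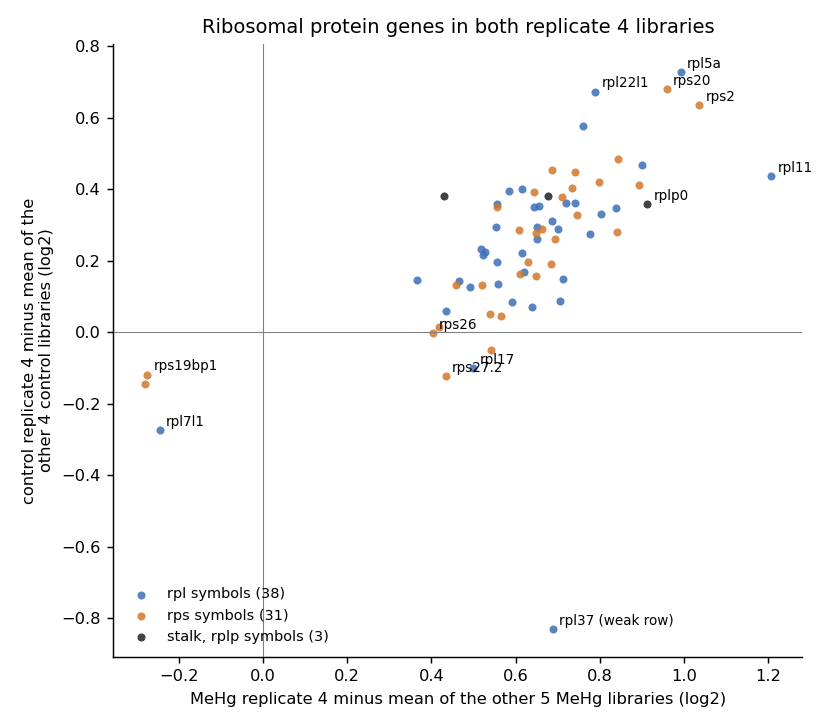
Each point is 1 of the 72 genes, placed by its excess in MeHg replicate 4 over the mean of the other 5 MeHg libraries (horizontal axis, log2) and in control replicate 4 over the mean of the other 4 control libraries (vertical axis, log2). Most genes lie in the upper right, rpl11, rpl5a, rps2 and rps20 among the farthest, while points below 0 on both axes include rpl7l1 and rps19bp1.

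Other genes of protein synthesis were set beside the block. Of ribosome genes that the rule left out, gnb2l1, the small subunit scaffold Rack1, had a log2 fold change of -0.28 ± 0.21 (SE; adjusted p = 0.876 by limma). RPL29 had -0.19 ± 0.26 (SE; adjusted p = 0.925 by limma), which was 0.07 without control replicate 5.

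No elongation factor passed the test, and 11 of 15 were negative, against 45.7% of tested genes, with a median of -0.24 (-0.11 without control replicate 5). The lowest p belonged to eef1db, a subunit of the exchange factor that recharges eEF1A. MeHg libraries held 401, 503 and 685 scaled counts of it (lowest, median and highest), against 734, 676, 982, 690 and 584 in control replicates 2, 4, 5, 6 and 8. MeHg replicate 4 reached the control range, and the log2 fold change was -0.52 ± 0.16 (SE; adjusted p = 0.428 by limma). For eef1a1b, which carries aminoacyl-tRNA to the ribosome, it was -0.48 ± 0.16 (SE; adjusted p = 0.526 by limma), with control replicate 4, at 1462, the only control library below 1791, the highest MeHg value. The largest estimate in the list had the opposite sign. It was that of eef2a.1, at 0.86 ± 0.31 (SE; adjusted p = 0.611 by limma), and 0.80 without control replicate 5.

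Initiation factors gave 32 of 48 negative, against 45.7% of tested genes, with a median of -0.15. At an unadjusted p under 0.05 by limma, 5 were lower, against 3.3% of tested genes, and 2 were higher, against 542 of 16364 tested genes. After adjustment, 0 passed the threshold. Without control replicate 5 the median was -0.08. At an unadjusted p under 0.05 by limma, 4 were then higher and 0 lower, against 758 and 769 of 16364 tested genes. Estimates of opposite sign came from eif4g3b, a scaffold of the cap-binding complex, at 0.49 ± 0.14 (SE; adjusted p = 0.357 by limma), and the cap-binding gene eif4e1c, at 0.50 ± 0.15 (SE; adjusted p = 0.388 by limma). The 48 genes had a median of -0.22 in MeHg replicate 8 and of 0.49 in control replicate 5, on the scale centred per gene, and stayed at -0.02 and 0.01 in MeHg and control replicate 4.

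Of 87 ribosome biogenesis factors, 74 were negative, against 45.7% of tested genes, with a median of -0.15. At an unadjusted p under 0.05 by limma, 8 were lower (3.3% of tested genes were), and 0 passed the adjusted threshold. Without control replicate 5, 54 were negative, against 51.7% of tested genes, and the median was -0.04. The lowest p was that of ddx21, a nucleolar helicase that acts in ribosomal RNA synthesis and processing. MeHg libraries held 142, 193 and 323 scaled counts (lowest, median and highest), against 274, 578, 393, 353 and 283 in control replicates 2, 4, 5, 6 and 8. Only MeHg replicate 4 reached the control range. The log2 fold change was -0.86 ± 0.23 (SE; adjusted p = 0.267 by limma), and -0.83 without control replicate 5. For pno1, an assembly factor of the small subunit, it was -0.49 ± 0.15 (SE; adjusted p = 0.372 by limma).

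Mitochondrial ribosomal proteins, made in the cytosol for a separate ribosome, separated from the block in both replicate 4 libraries. Their 64 tested genes had a median log2 fold change of -0.27, with 60 negative, against 45.7% of tested genes, and 0 past the threshold. At an unadjusted p under 0.05 by limma, 10 were lower, against 3.3% of tested genes. Without control replicate 5 the median was -0.09 and 49 were negative, against 51.7% of tested genes. At that p, 4 were then lower, against 769 of 16364 tested genes. In control replicate 5 the centred median of mitochondrial ribosomal proteins was 0.78, close to the block's 0.88. In MeHg and control replicate 4 it was -0.21 and -0.27, where the block stood at 0.39 and 0.38. In MeHg replicate 8 it was -0.15, against -0.65 for the block.

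**Figure D5:**
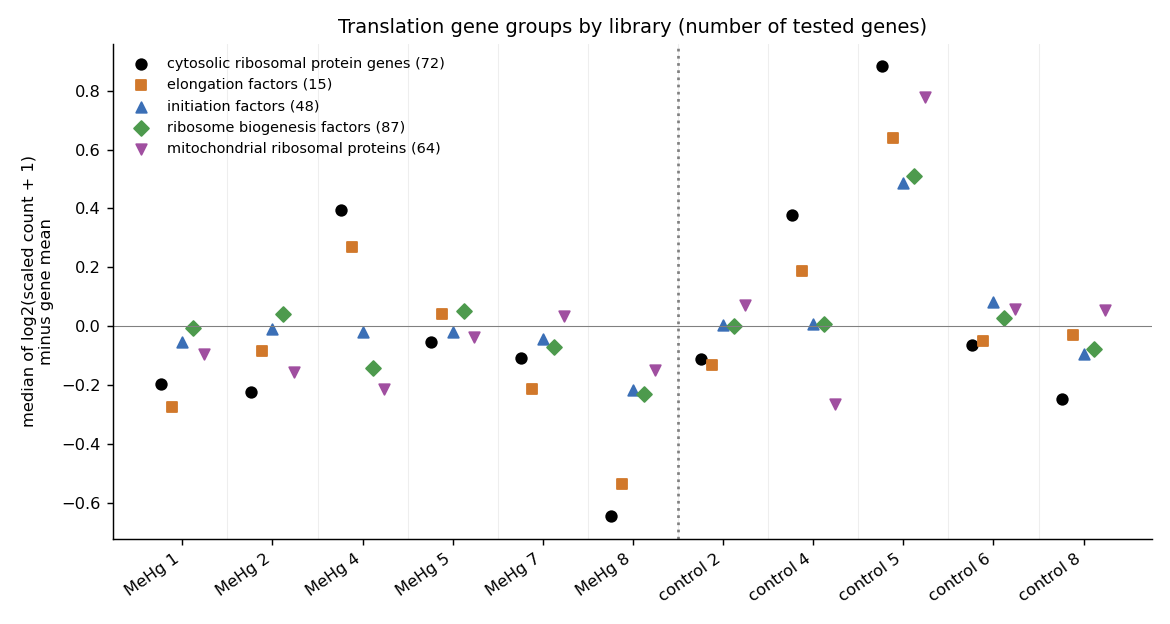
Median of log2(scaled count + 1) minus the gene mean, for 5 groups of protein synthesis genes in each library, with the number of tested genes in the legend. All 5 are raised in control replicate 5, from 0.49 to 0.88, whereas in both replicate 4 libraries the cytosolic block and elongation factors are above 0 and mitochondrial ribosomal proteins below it.

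Regulators of ribosome synthesis differed from list to list. RNA polymerase I genes had 9 of 16 negative with a median of -0.02, and mTOR, S6 kinase and 4E-BP genes 22 of 36 with a median of -0.10, none past the threshold. Of all tested genes, 45.7% were negative. In the mTOR list 3 genes were lower at an unadjusted p under 0.05 by limma, against 3.3% of tested genes, and 0 were higher. They were mycn at -0.61 ± 0.22, eif4ebp3l at -1.27 ± 0.55 and mycb at -0.42 ± 0.19 (SE). Without control replicate 5 these values were -0.49, -1.07 and -0.29. Both mycn and mycb are Myc transcription factor genes, which the list held beside the classes in its name. The RNA polymerase I genes had a median on the scale centred per gene of -0.06 in MeHg replicate 8 and of 0.74 in control replicate 5. For the mTOR genes these medians were 0.01 and -0.05. Of 9 genes of p53 and ribosomal stress, 0 passed with every library. The cell cycle inhibitor cdkn1a had 28.04 to 70.3 scaled counts in MeHg libraries, against 4.57, 40.4, 23.0, 5.37 and 12.0 in control replicates 2, 4, 5, 6 and 8, with a log2 fold change of 1.82 ± 0.50 (SE; adjusted p = 0.310 by limma). With MeHg replicates 4 and 5 and control replicates 4 and 5 left out it passed, at 2.45 ± 0.41 (SE; adjusted p = 0.0362 by limma), as did 0.312% of tested genes. That omission took out the highest control values, 40.4 and 23.0. Of the control values left, 4.57 and 5.37 lay below the filter minimum of 10 scaled counts, so this call rests on values near the floor. Integrated stress response genes had a median of -0.02, with 0 of 15 past the threshold. By contrast, 13 of 16 core clock genes passed, 6 higher and 7 lower, against 0.269% of tested genes. The gene lists were chosen with earlier results of these data known, so the clock count is no independent check of the fit. Ribosomal protein genes gave no call.

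In the libraries at the ends of the block, values ran with transcript length, a pattern that the other libraries did not all share. The ratio of scaled count to FPKM, which grows with gene length, had a median of 2.70 in members and 10.6 in tested genes, and 59 of the 72 members fell in the shortest 10% of tested genes by this ratio. In MeHg replicate 8, tested genes other than the members had a median of -0.08 in the shortest 10% and 0.14 in the longest 10%, on the scale centred per gene. In control replicate 5 these values were 0.31 and -0.35. Where the block was raised in replicate 4, they were -0.10 and -0.03 in the MeHg library and -0.12 and -0.07 in the control library. In MeHg replicate 7 and control replicates 2 and 6 the shortest 10% stood at 0.13 each. Block medians there were -0.11, -0.11 and -0.06. The median log2 fold change of tested genes other than the members was -0.07 in the shortest 10% and 0.15 in the longest 10%. Without control replicate 5 these medians were -0.09 and 0.05. The part of length in the block's shift was not tested.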

How the data were processed

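The authors deposited fragment counts scaled by library (signal) and FPKM values, each per gene and library. The scaling was read from the low values (under 200 steps): within 0.01, between 98.2% and 98.9% of them came out as multiples of a step particular to each library. Per the submitters' processing notes the tools were CASAVA 1.8.2, TopHat, Cuffnorm, FastQC and cutadapt with the build Zv9; strand and the handling of shared reads are not stated there. An unnamed sample column (1 per table) was not used here. Because the values are scaled, voom took the place of tests of raw counts. It was run on rounded scaled counts with the same library size set for every library, so it did not use each library's depth. The main test was limma 3.58.1 in R 4.3.3 (statmod 1.5.0; trend and robust) on log2(scaled count + 1), with Benjamini-Hochberg adjustment over 16364 genes at 0.05. The fit was checked on simulated data in which genes varied independently, so that check does not cover genes that move together. Tables used pandas 2.3.3, numpy 2.4.6 and Python 3.11.15, and plots matplotlib 3.10.9. Members and gene lists were chosen with earlier results of these data known. Named members were those with the smallest p, extreme fold changes, levels or SDs, the stalk genes, rps6, and duplicates, with up to 3 genes of smallest p from each other list. rpl23a and rpl9, the replicate 4 genes and RPL29 were named after their values were seen. Some genes are not reported here. The p-values set the difference between lineages against the spread between libraries within a lineage. Exposure was given to founding eggs, and the number of founders is not stated. An effect of exposure and a difference between founders therefore cannot be told apart by these p-values.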

Additional observations from a re-analysis of the deposited data

Results flagged for a closer look

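Of 150 combinations of a gene or library measure and a lineage, 16 held a library whose gap to its nearest neighbour was large for the range of its group. Chance gives about 1 in 20, and since the members move together these are few independent events. Far above the other MeHg libraries, MeHg replicate 4 held scaled counts of rps2 at 8770, rpl11 at 4006, rpl5a at 3576, rps20 at 3148, rpl30 at 2865, rps27.1 at 2334 and rpl22 at 1691. The members' share of all FPKM, 10.9% in MeHg replicate 4, stood apart as well. Far above the other control libraries, control replicate 5 held scaled counts of rpl32 at 4214, rps27.2 at 3695, rps25 at 3440, rpl17 at 2930, rpl21 at 2715, rps21 at 2460, rps29 at 1647 and rpl7l1 at 259.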

How the results depend on the processing

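No member passed the threshold under any of the 29 alternatives, and the lowest adjusted p of the 33 named members was 0.344. Of 957 values of named members, 910 kept their sign. Changed gene filters, the threshold of 0.1 and the fit without trend or robust cannot alter a member's log2 fold change. Signs under these alternatives were thus kept by construction. Leaving out each library in turn gave 13 to 30 higher and 21 to 42 lower genes over all (16 and 28 with every library; 30 higher without control replicate 5), 67 to 72 negative members and a median of -0.40 to -0.13. The genes past the threshold numbered 25 higher under quantile normalization, 47 higher and 58 lower with array weights, 29 and 51 with voom, 35 and 46 at a threshold of 0.1, and 12 lower with size factors undone. With size factors undone 45 members were negative, with a median of -0.02 against 0.31 for all genes, a difference of -0.32 where it had been -0.33. Array weights and voom each gave a median of -0.10 in members against -0.02 for all genes, a difference of -0.08. Without control replicate 5 the difference was -0.12. Without control replicate 5 and MeHg replicate 8, 46 members were negative and the difference was -0.01. The offset from all genes was thus smaller where libraries were weighted or those at the ends left out. Correlations of same-numbered libraries were 0.099, 0.463, 0.193 and 0.055 for replicates 2, 4, 5 and 8. Such correlations of expression cannot show whether replicate numbers paired the samples. MeHg replicate 4 correlated best with control replicate 4, and MeHg replicates 2, 5 and 8 with a control library of another number. For MeHg replicate 5 that library was control replicate 4 too. With the replicate number as a block, 9 genes were higher and 11 lower, 0 members passed and their median was -0.36.

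Signs turned for these log2 fold changes. With size factors undone, rpl3 had 0.0019, rpl4 0.048, rpl5a 0.011, rpl5b 0.12, rpl7 0.025, rpl22l1 0.030, rpl32 0.093, rpl34 0.098, rpl38 0.12, rplp1 0.17, rps19bp1 0.20 and rps27.1 0.0034. Each of these values lay below the median of all tested genes in that setting, 0.31, which was 0.03 with size factors kept. Array weights and voom gave rpl5a 0.014 and 0.017, rpl5b 0.067 and 0.065, rpl32 0.035 and 0.034, rpl34 0.012 and 0.013, rpl38 0.057 and 0.057, rplp1 0.15 and 0.14, rps19bp1 0.12 and 0.13. The 7 libraries without high epidermis or muscle markers gave rpl5b 0.0069, rpl38 0.092, rplp1 0.050 and rps19bp1 0.11. Omitting single libraries, or control replicate 5 with MeHg replicate 8, gave values that ranged from -0.44 to 0.048 for rpl5a, -0.30 to 0.15 for rpl5b, -0.37 to 0.021 for rpl7, -0.52 to 0.0027 for rpl11, -0.41 to 0.0093 for rpl22, -0.30 to 0.15 for rpl32, -0.27 to 0.073 for rpl34, -0.26 to 0.10 for rpl38, -0.27 to 0.17 for rplp1, -0.45 to 0.010 for rplp2l, -0.22 to 0.11 for rps19bp1 and -0.40 to 0.0060 for rps27.1. The cause was not tested. DESeq2 and edgeR were not run, and voom stood in for them. Depth limits the tail, where rps19bp1 rested on 34 to 163 implied fragments.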
